A study of Mus musculus with 4 samples.

Results

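Tight junctions seal the space between neighbouring epithelial cells, and 10 mouse genes that build them are described here in mammary basal cell colonies grown with or without Wnt3A: 6 claudins (Cldn1, Cldn3, Cldn4, Cldn7, Cldn8 and Cldn12), 2 MARVEL family membrane proteins (Ocln and Marveld2) and 2 proteins of the cytoplasmic plaque (Tjp3 and Cgn). These 10 of 18193 genes with a named probe set were chosen by symbol, and every probe set whose only gene symbol in the platform annotation was one of them was taken. With array controls set aside, this gave 19 of 45037 probe sets: 4 each for Cldn1 and Cldn3, 2 each for Cldn12, Ocln and Cgn, and 1 each for the other 5 genes. Probe sets of 1 gene read the same transcript and are not independent measurements.

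The cells were lineage-negative, CD24+ and CD29hi epithelial cells sorted from the mammary glands of virgin CD1 females 8 to 12 weeks old, a gate enriched for mammary stem cells. They were grown in Matrigel, a basement membrane gel, in medium with 50 ng/ml EGF, and RNA was taken from passage 2 colonies after 6 to 7 days. The control group received the vehicle of 1% CHAPS in PBS, the other group 200 ng/ml purified Wnt3A, a secreted ligand of the canonical Wnt pathway. Whether the Wnt3A cultures also received CHAPS is not stated in the labels, so Wnt3A and an absence of that detergent cannot be told apart. Each group had 2 Affymetrix arrays, control 1 and control 2 against Wnt3A 1 and Wnt3A 2, and whether these are different animals or cultures is not stated in the labels, and the spread behind each p-value may be technical. The colonies derive from a gate and not from a clone, and they were passaged before RNA was taken.

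Claudins are small membrane proteins whose extracellular loops pair across the gap between cells, and the set of claudins a cell makes fixes which ions pass. Occludin, the product of Ocln, and tricellulin, the product of Marveld2, join the claudin strands at contacts of a pair of cells and at corners where more cells meet. Scaffolds such as ZO-3 (Tjp3) and cingulin (Cgn) tie the strands to actin from the inside. In the mammary gland, tight junctions are known mainly from the luminal layer, where they close at the onset of milk secretion.

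In these colonies Cldn8 was lower with Wnt3A by 1.44 log2 units, while Cldn4, Cldn1, Cldn3 and Cgn had higher means with Wnt3A, by 1.14 for Cldn4, by 0.61 to 0.71 for the Cldn3 probe sets and by 0.52 and 0.54 for the Cgn probe sets. The 4 Cldn1 probe sets differed by 0.03 to 1.13, and their mean by 0.48. Ocln and Tjp3 had lower means by 0.20 to 0.42, and Cldn7 and Marveld2 differed by 0.03 and -0.04. No probe set passed the test: limma called 0 of 45037 probe sets at an adjusted p under 0.05 (0% of all probe sets), the smallest adjusted p was 0.511, and the smallest among the members was 0.541, for Cldn8. At an unadjusted p under 0.05, 3 member probe sets were higher and 1 was lower, where 2.98% of all probe sets were higher and 3.24% lower. The differences below are therefore measured values of these 4 arrays.

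The deposited values are log2 values from which each probe set's median over the 4 arrays was subtracted, so a value of 0 is that probe set's own middle and levels cannot be compared between genes. An exact permutation test of 2 against 2 arrays cannot give a two-sided p below 0.333, and the number of arrays limits the precision. The median difference over all probe sets was 0.0065 log2 units. A rough level could be read from the precision with which numbers were stored, which shows whether the lowest of the 4 arrays lay above log2 8, between 4 and 8, or below 4. It placed 14 of the 19 member probe sets above 8, 4 between 4 and 8, and 1 below 4, against 33.4%, 46.9% and 18.8% of all probe sets. Axin2, a feedback inhibitor that canonical Wnt signalling induces, served as a check of the treatment. Its probe set with the larger difference had -0.58 and -1.18 in the controls against 1.20 and 0.58 with Wnt3A. The other Axin2 probe set differed by -0.12. Over the 14 probe sets of 7 measured Wnt target genes, 0 passed the adjusted test and the median difference was -0.01. Of these, 4 were separated higher (17.4% of all probe sets were) and 4 lower (16.3% were). On gene means 3 of the 7 genes were separated higher, Axin2, Notum and Znrf3 (17% of all genes were). Lgr5 alone, 1 gene, was lower (17.5% were), and Nkd1, Lef1 and Rnf43 overlapped. Notum differed by 1.21 ± 0.27, with controls at -0.37 and -0.65 and Wnt3A arrays at 0.37 and 1.03, and the Znrf3 probe sets by 0.27 to 0.41. The stem cell receptor gene Lgr5, also a Wnt target, differed by -1.48 ± 0.26 and -0.14 ± 0.14 in its probe sets. Procr, the protein C receptor gene, differed by 2.75 ± 0.71 log2 units in its probe set (limma adjusted p = 0.728). The Procr controls were at -1.87 and -0.66 and the Wnt3A arrays at 0.66 and 2.31, and the difference was 1.93 without Wnt3A 2.

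**Figure D1:**
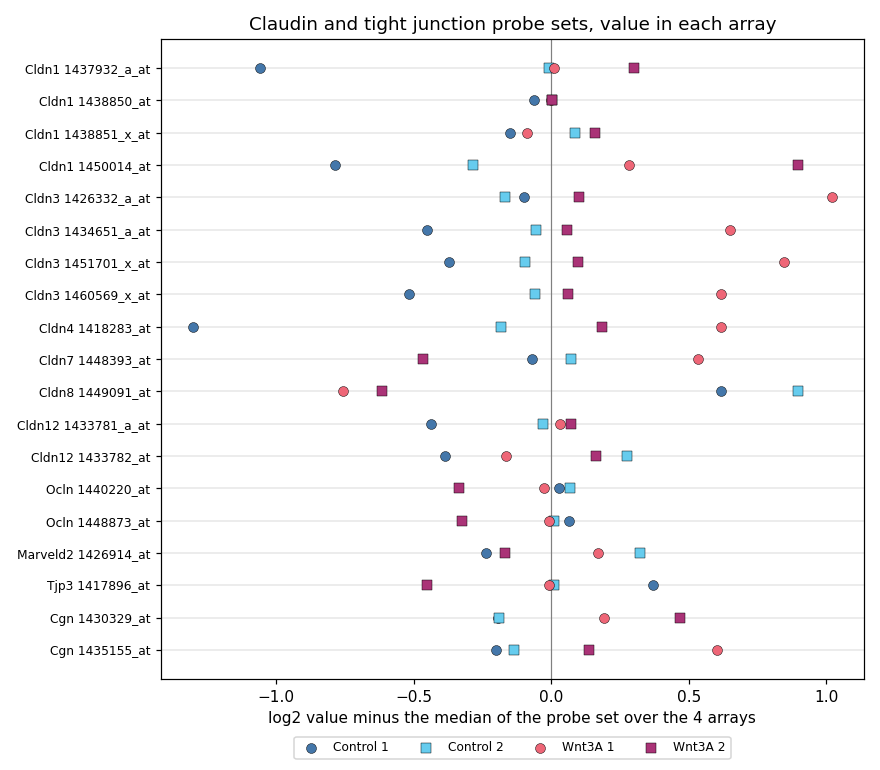
Values of the 19 claudin and tight junction probe sets in each of the 4 arrays, as log2 units from the probe set's own median over the arrays (x axis), with 1 row for each probe set. Both controls lie to the right of both Wnt3A arrays by a wide gap in Cldn8, while control 1 is the leftmost point in 13 of the 19 rows.

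Cldn8 encodes a claudin of tight epithelia that restricts cation passage and partners claudin-4 in the kidney collecting duct. Its value was 0.62 in control 1 and 0.90 in control 2, against -0.76 in Wnt3A 1 and -0.62 in Wnt3A 2. Both controls were high and both Wnt3A arrays low, and the gap between the groups, 1.23 log2 units, exceeded the distance between arrays of a group, which was 0.28 in the controls and 0.14 with Wnt3A. The difference was -1.44 ± 0.16 log2 units (SE, n = 2 and 2; limma 95% interval -1.87 to -1.02), a level 2.72-fold higher in the controls, with an unadjusted p of 5.5e-04 and an adjusted p of 0.541. It lay between -1.30 and -1.58 over the 4 fits that leave out 1 array. RNA from pooled colonies cannot tell fewer cells that make a transcript from less of it in each cell.

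Cldn4 encodes a barrier-forming claudin and a receptor of Clostridium perfringens enterotoxin. Its value was -1.30 in control 1 and -0.18 in control 2, against 0.62 in Wnt3A 1 and 0.18 in Wnt3A 2. The groups did not overlap, but the gap of 0.37 between control 2 and Wnt3A 2 was smaller than the 1.12 between the 2 controls. The difference was 1.14 ± 0.43 log2 units (limma, adjusted p = 0.803), 2.21-fold, and it was 0.58 without control 1 against 1.70 without control 2. A 95% interval of -0.0052 to 2.29 includes 0.

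Cldn3 is the neighbour of Cldn4 in the RefSeq gene table, and its product is also a receptor of that enterotoxin. Its 4 probe sets were at -0.52 to -0.10 in control 1, -0.17 to -0.06 in control 2, 0.62 to 1.02 in Wnt3A 1 and 0.06 to 0.10 in Wnt3A 2. All 4 had both Wnt3A arrays above both controls, and in all 4 Wnt3A 1 stood highest while Wnt3A 2 lay within 0.20 log2 units of the nearer control. The differences were 0.69 ± 0.34, 0.61 ± 0.27, 0.71 ± 0.30 and 0.63 ± 0.27 (limma adjusted p 0.829 to 0.864). Without Wnt3A 1 they were 0.23 to 0.35, and without Wnt3A 2 they were 0.90 to 1.15. Cldn4 likewise had Wnt3A 1 highest and Wnt3A 2 next.

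Cldn3 and Cldn4 are shown with the 250 bases before their RefSeq start sites because they are neighbours whose values had the same order in 4 of the 5 probe sets, and Cldn1 is shown beside them as another claudin with a higher mean. Sequences are from RefSeq, build GRCm38.p6, given 5′ to 3′ on the gene's strand in lower case. Capitals mark CAGGTG or its reverse complement CACCTG, the E-box that Snail and Zeb repressors can bind.
Cldn4, chr5:134946935-134947184, minus strand: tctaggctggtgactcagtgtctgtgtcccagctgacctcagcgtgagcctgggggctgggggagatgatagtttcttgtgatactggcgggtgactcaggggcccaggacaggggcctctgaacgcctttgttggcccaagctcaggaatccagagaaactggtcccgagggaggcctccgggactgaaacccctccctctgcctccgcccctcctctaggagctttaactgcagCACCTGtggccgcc
Cldn3, chr5:134985964-134986213, plus strand: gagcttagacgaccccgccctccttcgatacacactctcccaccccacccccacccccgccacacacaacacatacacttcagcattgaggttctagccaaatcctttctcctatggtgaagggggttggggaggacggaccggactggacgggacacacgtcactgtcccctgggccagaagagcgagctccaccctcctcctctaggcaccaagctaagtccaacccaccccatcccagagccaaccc
Cldn1, chr16:26371840-26372089, minus strand: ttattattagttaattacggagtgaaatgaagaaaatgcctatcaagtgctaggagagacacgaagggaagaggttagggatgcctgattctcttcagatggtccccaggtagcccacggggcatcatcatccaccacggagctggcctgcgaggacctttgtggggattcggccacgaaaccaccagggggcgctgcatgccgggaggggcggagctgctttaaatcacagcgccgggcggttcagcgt
The Cldn4 window held 1 such E-box and those of Cldn3 and Cldn1 held none. Searched on both strands, the E-box was in 5 of 15 start-site windows of the members, belonging to 4 of the 9 members with an entry, and in 17.2% of all 32851 windows of 250 bases. ATCAAAG, the core bound by TCF/LEF factors of the Wnt pathway, was in 0 of the 15 windows and in 3.21% of all. AACCGGTT, the Grainyhead site, was in 0 of the 15 and in 0.116% of all. These are matches of letters in a short window and do not show binding.

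Cldn1 encodes the claudin without which the epidermal barrier fails. Its 4 probe sets did not read alike. Probe set 1450014_at was at -0.79 in control 1 and -0.28 in control 2, against 0.28 in Wnt3A 1 and 0.90 in Wnt3A 2, groups apart by 0.57, and differed by 1.13 ± 0.29 log2 units (limma unadjusted p = 0.016, adjusted p = 0.728), between 0.82 and 1.43 with each array left out. Probe set 1437932_a_at was at -1.06 in control 1 and at -0.01, 0.01 and 0.30 in control 2, Wnt3A 1 and Wnt3A 2. Its difference of 0.69 ± 0.39 rested on control 1 and was 0.17 without it, and control 2 and Wnt3A 1 were apart by only 0.021. The remaining probe sets, 1438850_at and 1438851_x_at, differed by 0.03 ± 0.12 and 0.07 ± 0.16 with overlapping groups; the latter read below log2 4. The mean of all 4 gave 0.48 ± 0.21 for the gene, and the 4 probe sets together give no common size.

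Cldn12 encodes an unusual claudin that lacks the PDZ-binding end by which most others hold ZO scaffolds. Probe set 1433781_a_at was at -0.44 in control 1 and -0.03 in control 2, against 0.03 in Wnt3A 1 and 0.07 in Wnt3A 2. Control 1 alone stood apart, and the difference of 0.29 ± 0.18 was 0.08 without it. Probe set 1433782_at had overlapping groups, at -0.39 and 0.27 in the controls, compared with -0.16 and 0.16 in the Wnt3A arrays, and differed by 0.06 ± 0.28. Cldn7, whose product lies along the lateral membrane and binds the adhesion protein EpCAM, was at -0.07 and 0.07 in the controls, 0.53 in Wnt3A 1 and -0.47 in Wnt3A 2. The Wnt3A arrays lay on opposite sides of the controls, and the difference of 0.03 ± 0.36 has a limma 95% interval of -0.95 to 1.01, too wide to say that Cldn7 did not differ.

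**Figure D2:**
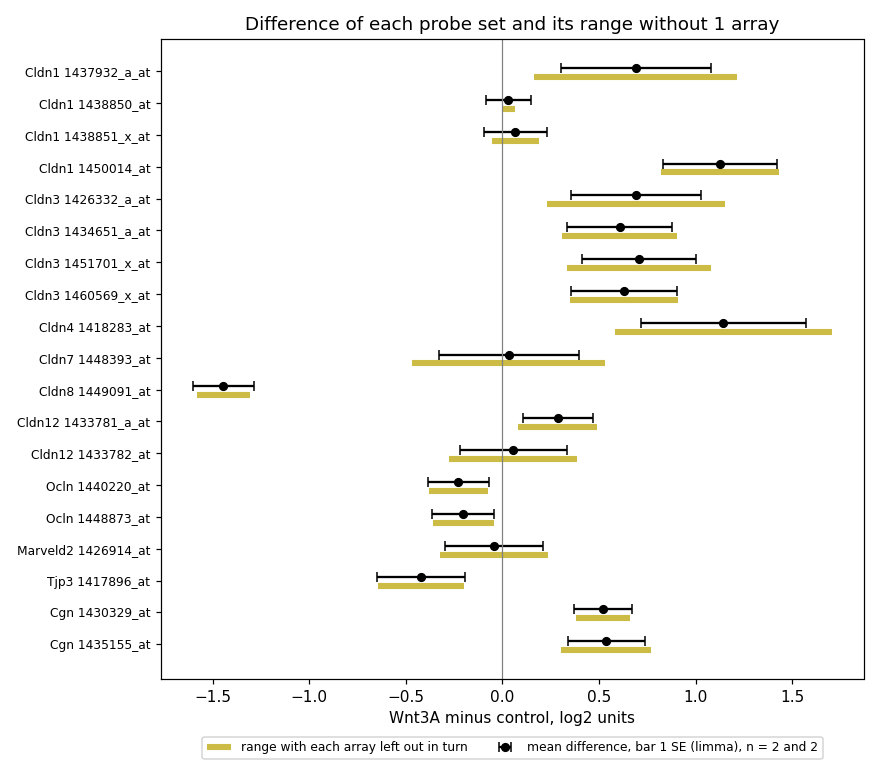
Wnt3A minus control for each of the 19 probe sets in log2 units (x axis). Black points are mean differences with bars of 1 SE from limma (n = 2 and 2), and yellow bars span the values obtained by leaving out 1 array at a time. The Cldn8 bar stays between -1.58 and -1.30, while the bars of Cldn7, Marveld2, Cldn12 1433782_at and the Cldn1 probe sets 1438850_at and 1438851_x_at cross 0.

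Occludin and tricellulin gave small differences. The Ocln probe sets were at 0.03 and 0.06 in control 1, 0.07 and 0.01 in control 2, -0.03 and -0.01 in Wnt3A 1 and -0.33 and -0.32 in Wnt3A 2. Both had the Wnt3A arrays below the controls, by gaps of 0.053 and 0.018, and Wnt3A 2 alone stood clearly low. They differed by -0.23 ± 0.16 and -0.20 ± 0.16 (limma adjusted p = 0.935 and 0.951), and by -0.07 and -0.05 without Wnt3A 2. Marveld2, the gene next to Ocln in the RefSeq table, was at -0.24 and 0.32 in the controls, compared with 0.17 and -0.17 in the Wnt3A arrays. Its groups overlapped and its difference was -0.04 ± 0.25, with a 95% interval of -0.72 to 0.64.

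The plaque genes went opposite ways. Cgn encodes cingulin, which links ZO proteins to actomyosin. Probe set 1430329_at was at -0.19 in both controls, 0.19 in Wnt3A 1 and 0.47 in Wnt3A 2, and probe set 1435155_at at -0.20 and -0.14 in the controls, 0.60 in Wnt3A 1 and 0.14 in Wnt3A 2. In both, the Wnt3A arrays were above the controls, and the controls lay close together. The differences were 0.52 ± 0.15 and 0.54 ± 0.20 log2 units (limma unadjusted p = 0.022 and 0.049, adjusted p = 0.739 and 0.803), and with an array left out they lay between 0.38 and 0.66 and between 0.31 and 0.77. The 2 probe sets thus gave nearly equal differences, although different Wnt3A arrays were highest. Tjp3, which encodes the scaffold ZO-3, was at 0.37 in control 1 and 0.01 in control 2, against -0.01 in Wnt3A 1 and -0.45 in Wnt3A 2. Control 2 and Wnt3A 1 were apart by only 0.019, and the difference was -0.42 ± 0.23 (limma adjusted p = 0.884), -0.20 without Wnt3A 2 and -0.24 without control 1.

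Counted together, 10 of the 19 member probe sets had both Wnt3A arrays above both controls, where 17.4% of all probe sets did, and 4 had both below, where 16.3% did. The 10 belong to 5 genes, Cldn1, Cldn3, Cldn4, Cldn12 and Cgn, and the 4 to Cldn8, Ocln and Tjp3, so the counts lean on the probe sets of Cldn3. With probe sets of a gene averaged, 4 of the 10 genes were higher (17% of all genes), 3 lower (17.5% of all) and 3 overlapped. Of the 14 separated probe sets, 5 were apart by less than 0.1 log2 units. With a gap of at least 0.1, 8 were higher (8.39% of all probe sets) and 1, Cldn8, lower (8.33% of all). The median difference of the 19 was 0.29 log2 units, against 0.0065 over all probe sets, and it was 0.08 without control 1, 0.49 without control 2 and 0.10 over the 10 gene means.

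Control 1 was the lowest of the 4 arrays in 13 of the 19 member probe sets, where it was lowest in 22.2% of all probe sets. Wnt3A 2 was the lowest in 4 (27.9% of all probe sets), among them both of Ocln and that of Tjp3, and Wnt3A 1 was the highest in 7, where it was highest in 30.3% of all probe sets. Taking the middle of the member values array by array gave -0.20 and -0.01 for controls 1 and 2, and 0.17 and 0.07 for Wnt3A 1 and 2. The typical distance between arrays of a group was larger for the members than for all probe sets, with medians of 0.278 against 0.181 between the controls and 0.341 against 0.187 between the Wnt3A arrays.

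Other claudins were listed for comparison. Of 16 listed genes 14 were measured by 17 probe sets, with 0 passing the adjusted test and a median difference of -0.01. There were 3 probe sets separated higher (17.4% of all probe sets were) and 2 lower (16.3% were). Cldn6, a claudin of embryonic epithelia, was at -0.49 and -0.61 in the controls, 1.62 in Wnt3A 1 and 0.49 in Wnt3A 2, and differed by 1.61 ± 0.40 (limma unadjusted p = 0.014, adjusted p = 0.728), 1.05 without Wnt3A 1. Cldn23 was at -1.23, -0.28, 0.72 and 0.28 in control 1, control 2, Wnt3A 1 and Wnt3A 2, the order seen for Cldn4, and differed by 1.26 ± 0.38 (limma adjusted p = 0.75), 0.78 without control 1. Cldn10, a channel-forming claudin, had the largest difference of the list, -1.99 ± 0.76, with control 2 at 2.43, control 1 at 0.31 and the Wnt3A arrays at -0.92 and -0.31. Without control 2 it was -0.93. Cldn2, which forms cation channels, differed by -0.66 ± 0.37 with overlapping groups, and its other probe set by 0.04.

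Among the other membrane proteins of the junction, 11 genes were measured by 28 probe sets. Of these 0 passed the adjusted test, and the median difference was 0.09. Separated higher were 7 (17.4% of all probe sets were) and lower 3 (16.3% were). The junctional adhesion genes Jam2 and Jam3 differed by up to 0.80 ± 0.44 and 0.45 ± 0.18, with Wnt3A 1 highest in both, and Jam2 by 0.21 without Wnt3A 1; this Jam2 probe set read below log2 4. The 5 Jam2 probe sets ranged from 0.01 to 0.80 and the 2 of Jam3 from 0.05 to 0.45. Igsf5, another immunoglobulin protein of the junction, differed by 0.63 ± 0.67 with Wnt3A 1 at 1.58 and Wnt3A 2 at -0.32. F11r, which encodes JAM-A, had overlapping groups in both probe sets and differed by 0.40 ± 0.34 and -0.03 ± 0.14.

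Plaque and polarity scaffolds other than Tjp3 and Cgn had a median difference of 0.01 over 57 probe sets of 22 measured genes. None passed the adjusted test, and 6 were separated higher (17.4% of all probe sets were) and 9 lower (16.3% were). Tjp1, which encodes the core scaffold ZO-1, was at -0.10 and 0.16 in the controls, compared with 0.04 and -0.04 in the Wnt3A arrays, and differed by -0.03 ± 0.15 (95% interval -0.43 to 0.37). The 4 largest differences were those of Amotl2 (0.71 ± 0.29), an angiomotin family protein, Magi1 (-0.70 ± 0.19), a scaffold with PDZ domains, Pard6b (0.62 ± 0.45) and Mpp5 (-0.60 ± 0.38), which encode members of the PAR and Crumbs polarity complexes. Groups overlapped for Pard6b and Mpp5, and probe sets ranged from -0.70 to 0.18 for Magi1, 0.33 to 0.62 for Pard6b and -0.60 to 0.12 for Mpp5. Without Wnt3A 1, Amotl2 differed by 0.43, Pard6b by 0.08 and Mpp5 by -0.12.

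Genes that regulate junctions, transcription factors and the membrane proteases that cut claudins or EpCAM among them, had a median of 0.02 over 35 probe sets of 18 genes. None passed the adjusted test, and 12 were separated higher (17.4% of all probe sets were) and 6 lower (16.3% were). At a limma unadjusted p under 0.05 there were 4 higher (2.98% of all probe sets) and 0 lower (3.24% of all). Grhl3, a Grainyhead factor of the epidermal barrier, was at -0.70 and -0.56 in the controls, compared with 0.56 and 0.81 in the Wnt3A arrays, a difference of 1.31 ± 0.15 (limma adjusted p = 0.552) that stayed between 1.19 and 1.44 with each array left out. Klf4, another factor of the epidermal barrier, differed by 1.08 ± 0.24, and Klf5 by 0.93 ± 0.32, the latter 0.50 without Wnt3A 2. Ovol1 differed by 1.23 ± 0.64, with Wnt3A 2 at 1.98, and by 0.31 without that array. Probe sets ranged from 0.86 to 1.08 for Klf4, 0.24 to 0.93 for Klf5 and 0.95 to 1.23 for Ovol1. Snai2, which encodes the repressor Slug, differed by 0.35 ± 0.16 in the probe set with the larger value. The other Grainyhead factors did not follow Grhl3. Grhl2 was separated lower on its gene mean, with a difference of -0.21 ± 0.12, and its 4 probe sets ranged from -0.28 to -0.17. Grhl1 differed by 0.36 ± 0.39 with overlapping groups.

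Adherens junction genes, whose products hold cells together just below the tight junction, had a median of 0.11 over 31 probe sets of 12 genes. Of these 0 passed the adjusted test, 10 were separated higher (17.4% of all probe sets were) and 1 lower (16.3% were). Nectin3, an adhesion receptor, differed by 1.76 ± 0.66 with control 1 at -2.15, and by 0.83 without that array. Nectin4 differed by 0.55 ± 0.22 and Ctnnd1, which encodes p120 catenin, by 0.48 ± 0.21. The largest Ctnna1 value, 0.80 ± 0.77, came from overlapping groups. Probe sets ranged from 0.0024 to 1.76 for Nectin3, 0.26 to 0.55 for Nectin4, 0.20 to 0.48 for Ctnnd1 and -0.08 to 0.80 for Ctnna1. Cdh1, which encodes E-cadherin, was at -0.20 and 0.14 in the controls and at about 0 in both Wnt3A arrays, a difference of 0.03 ± 0.16.

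**Figure D3:**
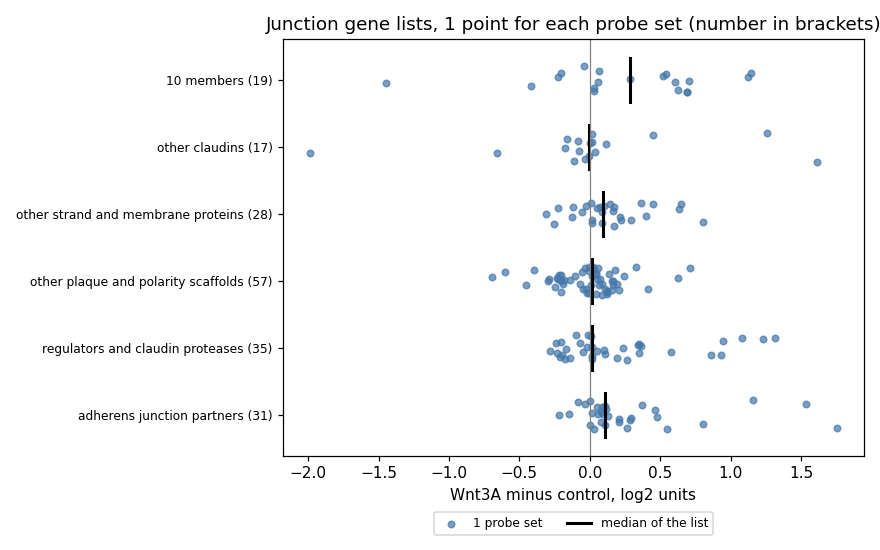
Wnt3A minus control in log2 units (x axis) for the members and the 5 other junction lists, with 1 point for each probe set, the number of probe sets in brackets and a black line at the list's median. The member line is at 0.29, and the lines of the other lists lie between -0.01 and 0.11.

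Marker genes were set beside these values because claudin transcripts differ between epithelial cell types. Of the squamous markers, genes of cornifying keratinocytes, 0 of 22 probe sets passed the adjusted test, 15 were separated higher with Wnt3A (17.4% of all probe sets were) and 0 lower, with list medians of -0.46, -0.32, 0.11 and 1.05 in control 1, control 2, Wnt3A 1 and Wnt3A 2. Wnt3A 2 was thus the array with the highest squamous median. Of the 19 member probe sets 5 were highest in Wnt3A 2, where 21.5% of all probe sets were. Another 7 were highest in Wnt3A 1 (30.3% of all probe sets), among them all 4 of Cldn3. Luminal markers had medians of -0.08, 0.09, 0.03 and -0.09 in the same order, with 0 of 26 probe sets passing and differences from -2.52 to 1.43. There were 4 probe sets separated higher and 7 lower, where 17.4% and 16.3% of all probe sets were. The luminal keratin genes Krt8 and Krt18 were lowest in control 1, at -0.65 to -0.41, and differed by 0.17 to 0.30. On gene means 3 luminal genes were separated higher (17% of all genes were) and 5 lower (17.5% were). Among the 5 lower, the luminal factor Foxa1 differed by -2.34 ± 0.50. The others were Cited1 (-2.52), Krt19 (-1.71), Kit (-0.74) and Pgr (-0.60). The 3 higher were Aldh1a3, Krt7 and Prom1, with probe set differences of up to 1.43 ± 0.51, of 0.83 ± 0.39 and of 0.50 ± 0.20. The list thus did not move one way. Basal markers had medians of -0.17, -0.02, 0.02 and 0.12, with 0 of 31 probe sets passing. Of these, 13 were separated higher and 2 lower, where 17.4% and 16.3% of all probe sets were. On gene means 3 of the 12 basal genes were separated higher (17% of all genes were) and 1 lower (17.5% were). Control 1 was very low in single probe sets of the contractile genes Myh11 (-3.30), Cnn1 (-2.75) and Acta2 (-1.66) and of Krt14 (-1.33). Other basal probe sets were not low in control 1, which was at 0.02 for Krt5 and at 1.26 for an Oxtr probe set. It was at -0.03 for the other Myh11 probe set and at 0.12 for another Acta2 probe set. The gene mean of Mylk, also a contractile gene, was lowest in Wnt3A 1, at -0.59 against -0.16 in control 1. Oxtr, the oxytocin receptor gene, differed by -2.60 ± 0.12 in one probe set and by -0.17 ± 0.22 in the other. The part of these cell types in the claudin values was not tested.

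The labelled cell type could be checked only roughly, since levels were removed. The basal keratin gene Krt14 read above log2 8 in all 3 of its probe sets and Krt5 in its probe set, as did Krt8 and Krt18. Leukocyte, endothelial and fibroblast markers read above log2 8 in 2 of 12, 1 of 11 and 1 of 15 probe sets, and both Ptprc probe sets, of the pan-leukocyte marker CD45 that the sort removed, read below 4. Medians of these 3 lists lay between -0.11 and 0.12 in every array. Single probe sets differed by -0.17 to 0.57 for leukocyte, -0.32 to 0.39 for endothelial and -1.76 to 0.24 for fibroblast markers. The lowest was of the fibroblast gene Pdgfra, at 1.67 and 0.42 in the controls against -0.42 and -1.01 with Wnt3A. Its 3 probe sets ranged from -1.76 to 0.02.

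**Figure D4:**
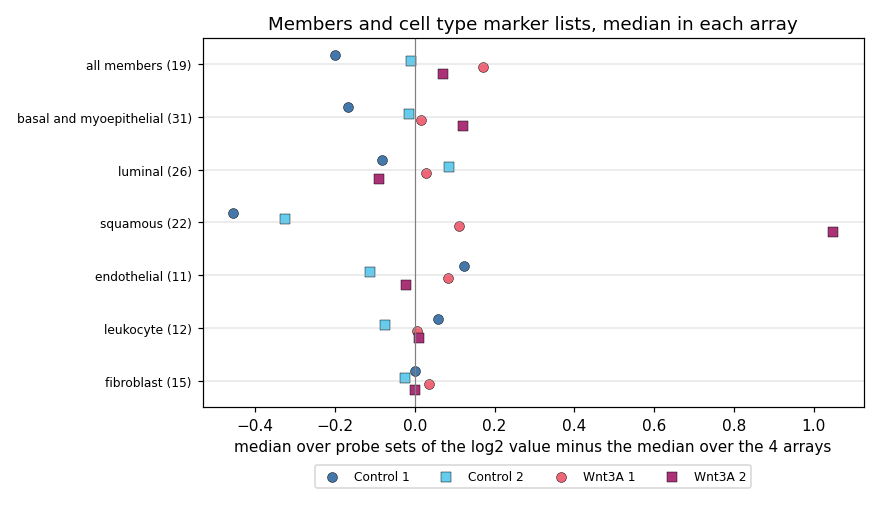
Median over probe sets of the log2 value from the probe set's own median (x axis), in each of the 4 arrays, for the members and 6 cell type marker lists, with the number of probe sets in brackets. Squamous markers spread from -0.46 in control 1 to 1.05 in Wnt3A 2, and the members from -0.20 in control 1 to 0.17 in Wnt3A 1.

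The probe sets most like Cldn4 over the 4 arrays, by Euclidean distance in log2 units, were those of Vgll3 (0.057), Clu (0.12) and Cldn23 (0.18), which differed by 1.14, 1.15 and 1.26. Those most like Cldn8 were of Ltbp3 (0.12), Nkain2 (0.12) and Ttc30b (0.20), which differed by -1.41, -1.42 and -1.33. With 4 values a probe set and 34945 named probe sets to choose from, such matches are a description only.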

How the data were processed

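RNA from 4 colony samples was hybridised to Affymetrix mouse genome-wide arrays, 1 sample an array. The submitters' processing notes name RMA, without a version, as the authors' method for the deposited log2 values. No note used here describes the centring, which was found from the numbers, since the median of all 45101 rows over the 4 arrays was 0. Gene symbols came from the platform annotation: 34945 probe sets had 1 symbol, 932 several and 9160 none, and 64 array controls were left out.

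The test of Wnt3A against control was limma 3.58.1 under R 4.3.3 (lmFit, then eBayes, no covariate, two-sided, Benjamini-Hochberg adjustment over 45037 probe sets, threshold 0.05), with 2 residual and 2.3 prior degrees of freedom and no filter on low values; SE is that of the moderated fit. A group was called separated where both Wnt3A arrays lay above, or below, both controls. The level read from stored precision is that of the lowest array; by construction it can read too high by chance but not too low, and it was tested on simulated data. Of ribosomal protein probe sets 77.8%, and of olfactory receptor probe sets 6.82%, read above 8. The fit was also tested on simulated data.

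Members and gene lists were chosen with earlier results of these data known. All members are named, and of the other junction lists the 4 genes furthest from 0 by their most different probe set. Tjp1, F11r, Cdh1, Grhl3, Snai2, Axin2 and Procr were always given. Grhl1 and Grhl2 were added beside Grhl3, and the other Wnt targets beside Axin2. Marker genes named singly were chosen after their values were seen. Promoter windows were 250 bases before RefSeq start sites. Figures were drawn with matplotlib 3.10.9. Alternatives were quantile normalization, centring of arrays, robust eBayes, the replicate block, leaving out single arrays, named probe sets alone, a filter on low readings, gene means and other thresholds.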

Additional observations from a re-analysis of the deposited data

How the results depend on the processing

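The number of probe sets with an adjusted p under 0.05 was 0 under quantile normalization, centring of each array, robust eBayes, the replicate block, each array left out, named probe sets alone, removal of probe sets read below log2 4, gene means and a threshold of 0.1, and 2801 had an unadjusted p under 0.05. Over these alternatives no member passed; the smallest adjusted p was 0.292, for Cldn8 on gene means, and over probe sets 0.37, with the replicate number as a block, for Cldn8 and for Cldn1 1450014_at. The labels do not say what the numbers share; deviations of same-numbered arrays correlated at 0.526 over all probe sets, and with the replicate block the count of calls was 0. Leaving out an array leaves 1 sample in its group, whose spread is then taken from the other group: 10 to 14 members were then separated higher, where 30.7% to 38.3% of all probe sets were, and 4 to 7 lower, where 28.7% to 35.9% were, the 7 without control 1, and the median difference lay between 0.081 (without control 1) and 0.49 (without control 2). The median was 0.40 without probe sets read below log2 4, which leaves out 1 Cldn1 probe set. Gene means gave 4 higher and a median of 0.10 over 10 genes instead of 19 probe sets. Under quantile normalization and under centring of arrays, 9 members were separated higher, Cldn1 1437932_a_at no longer being so. Of 76 member values with an array left out 9 changed sign, and of 38 under quantile normalization or centring 0 did; robust eBayes, the block and the choice of probe sets leave a difference as it is by construction. With an array left out, Cldn12 1433782_at ranged from -0.27 to 0.39, Cldn1 1438850_at from -0.0025 to 0.065, Cldn1 1438851_x_at from -0.056 to 0.19, Cldn7 from -0.47 to 0.53 and Marveld2 from -0.32 to 0.24. The other 14 member probe sets kept their sign with each array left out. Levels on the arrays, and so signal over background, could not be read beyond the rough bands.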
